A study of Mus musculus with 19 samples.

Results

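Cadherins and the integrins that bind ligands other than laminin, with the alpha and delta catenins, were followed along the neural crest to Schwann cell lineage of the mouse. The members were all probe sets whose 1 annotated gene symbol begins with Cdh and a digit, Pcdh, Itga, Itgb, Ctnna or Ctnnd, leaving out Itga6, Itgb1 and Itgb4. They number 59 probe sets for 37 genes, of 10833 probe sets with 1 symbol for 8251 genes. The rule keeps 2 laminin-binding alpha subunits, Itga3 and Itga7, and a gene that only carries the integrin name, Itgb1bp1.

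The 19 arrays measured RNA of green fluorescent cells sorted from transgenic mice in which a proteolipid protein (Plp) promoter drives the fluorescent protein. All groups carry this transgene, and no strain or second genotype is named in the labels. Cells came from the trunk at E9.5 (3 arrays, called neural crest stem cells) and from the sciatic nerve at E12 (3 arrays, Schwann cell precursors), E14 (3 arrays), E16 (4 arrays), E18 (3 arrays) and the day of birth, P0 (3 arrays), the last 4 called Schwann cells or early Schwann cells. From E9.5 to E12 the body region changed together with the stage. A sort by this promoter takes whatever cells are fluorescent, and fewer cells of a type and less RNA per cell cannot be told apart in such bulk samples.

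Values are expression indices, a linear brightness per probe set. An index under 68.5, the 25th percentile of all values, was set to that floor before log2 was taken. The median index ran from 174 to 207 over the arrays. Sox10, the transcription factor of crest and glia, was above the floor on every array, and the summed index of 13 crest and Schwann markers was 6137 to 7027 at E9.5 and 15455 or more on each nerve array. Of 9 epithelial markers, Epcam and Krt18 were at or below the floor on all arrays, and Cdh1, Cldn3, Krt5 and Krt14 were above it on all. At E12 against E9.5, 1 of 6 tested rose and 0 fell, where 9.7% of all probe sets rose and 4.41% fell. Krt8, which rose, read 701, 757 and 1152 at E12, against 157, 91.5 and 106 at E9.5. Shorter amplified RNA raises the ratio of 3' to 5' GAPDH control signal. That ratio ran at E9.5 between 2.33 and 3.41, at E12 between 3.18 and 4.53, at E14 between 5.10 and 6.23, at E16 between 3.84 and 9.12, at E18 between 4.11 and 4.83, and at P0 between 4.69 and 7.69. The E12 ratios lay below all those of E14 and P0, and the E9.5 ratios below all those of E14, E16, E18 and P0. In those comparisons stage and ratio changed together. The labels assign the arrays to 4 lots and do not say what a lot shares. E16 replicates 1 and 2 and P0 replicate 1, all of lot 1, had ratios of 5.80, 9.12 and 7.69, and P0 replicate 3 had 6.80. Fibroblast markers moved with the stages: the summed index of 12 was 1673 to 2409 at E9.5, 12182 to 14828 at E12, 19096 to 26510 at E14, 27081 to 34037 at E16, 26011 to 31198 at E18 and 22280 to 30151 at P0.

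Cadherins are calcium-dependent adhesion proteins that bind their like on the next cell and are tied to actin through catenins. Neural crest cells are known to change their cadherins as they leave the neural tube and again as they settle along nerves. Integrins are pairs of an alpha and a beta subunit that bind matrix proteins such as fibronectin, vitronectin, tenascin and laminin, and the alpha subunit largely sets the ligand. In peripheral nerve, Schwann cells use them to hold axons and their own basal lamina.

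Of the 59 member probe sets, 48 for 34 genes lay above the floor on at least 3 arrays and were tested with the 10414 such probe sets of the array. Cdh9, Cdh11 and Itgb3 had no tested probe set. The tested probe sets include some that passed only through the stage where they were high. In all, 15 probe sets for 11 genes differed between stages: Cdh2, Cdh3, Cdh6, Ctnnd2, Itga4, Itga7, Itgam, Itgav, Itgb2, Itgb5 and Itgb7. Their calls rest on limma with Benjamini-Hochberg adjustment over all probe sets tested and a threshold of 0.05. These 15 were called in a comparison of stages or in the F-test over all 6 stages. The share of all probe sets called in any of these tests is not given. The count of 15 among the 48 thus cannot be read as particular to the members. By the F-test over all 6 stages 11 of the 48 were called, or 22.9%, against 29% of all probe sets. By the F-test over the 5 nerve stages 7 were called, or 14.6%, against 13.1%. Whether these shares differ was not tested.

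At E12 against E9.5, 8 member probe sets were called (16.7%, against 14.1% of all tested). Of them 7 were higher (14.6%, against 9.7% of all) and 1 was lower (2.08%, against 4.41%). At E14 against E12, 3 were called (6.25%, against 2.09% of all). Of them 2 were higher (4.17%, against 1.08% of all) and 1 lower (2.08%, against 1.02%). At E16 against E14, 3 were called (6.25%, against 1.69% of all). Of them 0 were higher (against 0.586%) and 3 lower (6.25%, against 1.1%). Limma called 0 members at E18 against E16 and 0 at P0 against E18, where 0.0768% and 0.125% of all probe sets were called, and an unadjusted p was under 0.05 for 2 and 6 members there (4.17% and 12.5%, against 8.07% and 11.7% of all). Of all probe sets 0.0096% were higher and 0.0672% lower at E18 against E16, and 0.0384% were higher and 0.0864% lower at P0 against E18. Over the whole nerve period, P0 against E12, 4 were higher (8.33%, against 4.53%) and 5 lower (10.4%, against 11.8%). At P0 against E9.5, 6 were higher (12.5%, against 12.1%) and 1 lower (2.08%, against 15.9%). The median log2 change of the 48 was 0.17 at E12 against E9.5 and 0.06 at P0 against E12, with 0.01 and -0.02 over all probe sets. These comparisons share arrays, so a stage that is high or low enters each comparison it is part of.

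**Figure D1:**
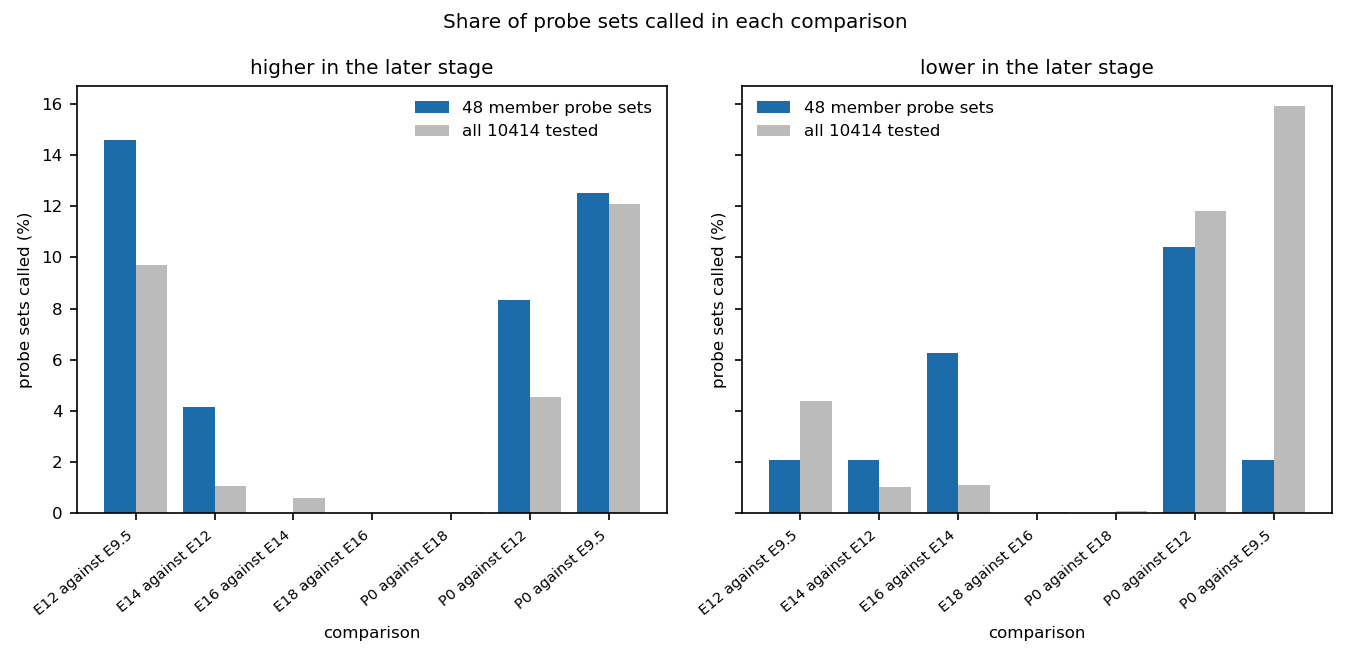
Percentage of probe sets called by limma (y axis) in each stage comparison (x axis), for those higher (left) and lower (right) in the later stage, with members in blue and all tested probe sets in grey. Members called at E18 against E16 and at P0 against E18 number 0, and at P0 against E9.5 the share of members called lower, 2.08%, is under that of all probe sets, 15.9%.

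The levels of the 48 by stage fall into a few courses. Itga4, Cdh6 and Ctnnd2 were highest in the early nerve, Itgav went up at entry into the nerve, Itga7 was highest at P0 and Cdh2 lowest there. Most rows of the map of stage means stay close to their own average.

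**Figure D2:**
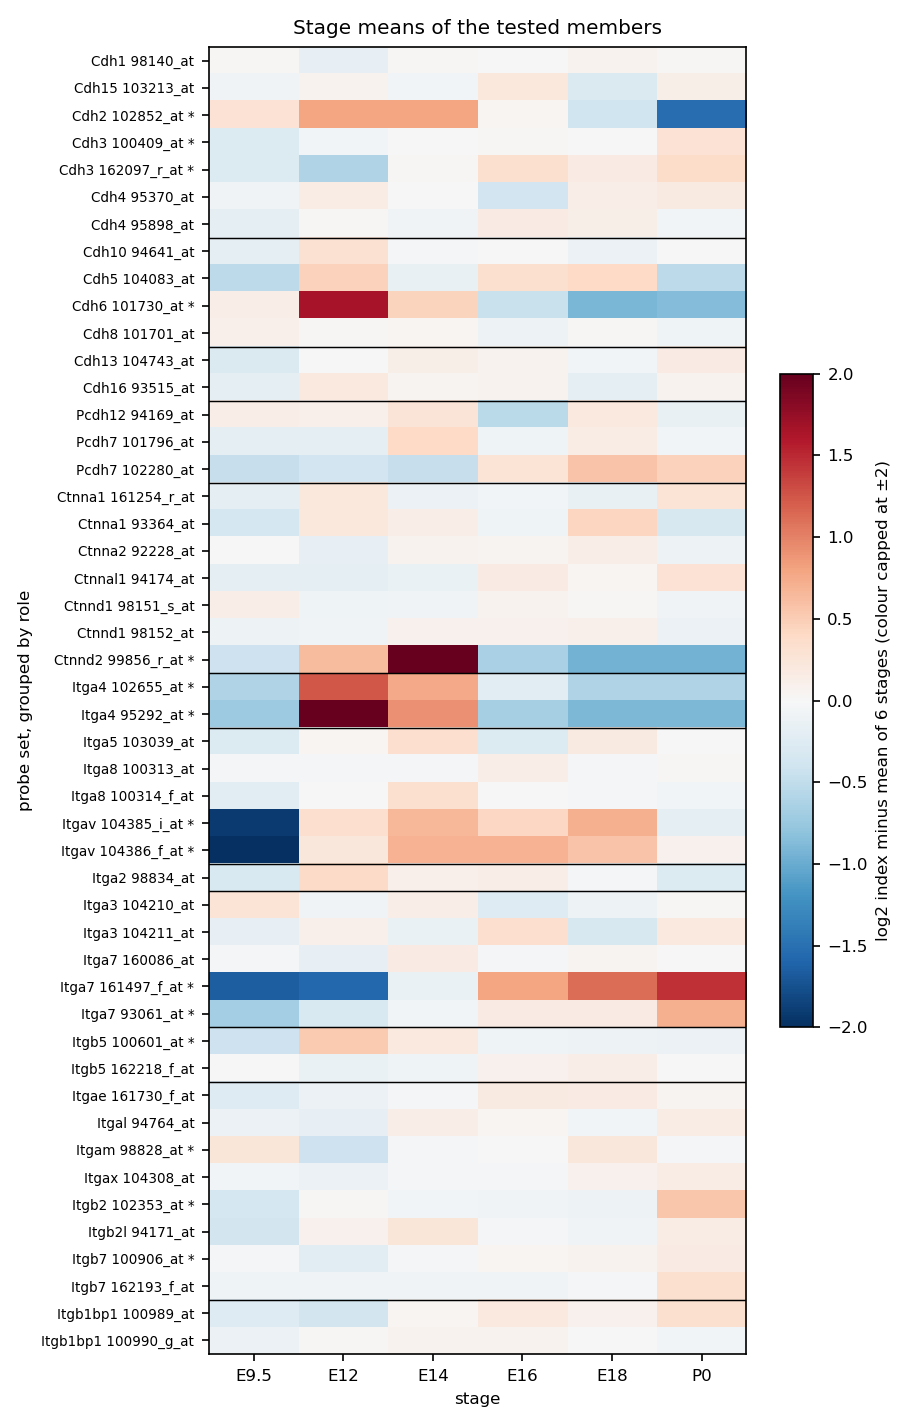
Mean log2 index of each tested member probe set (rows, grouped by role, a star marks those called) at each stage (columns), minus the mean of its 6 stage means, with red above and blue below and the colour capped at 2. The strongest colours belong to Cdh2, Cdh6, Ctnnd2, Itga4, Itgav and Itga7, and most rows of the leukocyte integrins are pale.

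Promoter sequences of 300 bases (250 before to 50 after the start of the gene, RefSeq, build GRCm38.p6) were found for 22 of the 37 genes. Those of Itga4, Cdh6, Ctnnd2 and Itgav are shown because these 4 genes had the members' largest rises at E12 against E9.5. Capitals mark GGGCGG, the box bound by Sp1, and ACAANG, the core bound by SOX factors, searched on both strands.
Itga4, chr2:79255176-79255475, plus strand: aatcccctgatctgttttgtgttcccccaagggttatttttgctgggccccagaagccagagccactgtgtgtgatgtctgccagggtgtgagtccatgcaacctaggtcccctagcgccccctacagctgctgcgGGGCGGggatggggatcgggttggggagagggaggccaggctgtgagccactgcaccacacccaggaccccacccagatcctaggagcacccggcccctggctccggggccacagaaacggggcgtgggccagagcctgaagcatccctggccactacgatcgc
Cdh6, chr15:13173626-13173925, minus strand: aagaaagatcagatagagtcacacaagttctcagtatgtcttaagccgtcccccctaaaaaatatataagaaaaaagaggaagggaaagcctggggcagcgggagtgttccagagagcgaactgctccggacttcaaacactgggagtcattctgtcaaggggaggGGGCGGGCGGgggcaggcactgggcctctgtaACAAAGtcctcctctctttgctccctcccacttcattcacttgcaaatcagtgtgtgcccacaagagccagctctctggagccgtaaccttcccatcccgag
Ctnnd2, chr15:30172284-30172583, plus strand: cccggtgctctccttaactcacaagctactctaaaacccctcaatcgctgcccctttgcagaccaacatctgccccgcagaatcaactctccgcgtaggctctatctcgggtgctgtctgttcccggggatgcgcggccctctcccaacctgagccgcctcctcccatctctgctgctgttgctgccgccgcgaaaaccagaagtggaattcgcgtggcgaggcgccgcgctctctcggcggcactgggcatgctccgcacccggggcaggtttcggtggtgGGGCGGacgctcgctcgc
Itgav, chr2:83724147-83724446, plus strand: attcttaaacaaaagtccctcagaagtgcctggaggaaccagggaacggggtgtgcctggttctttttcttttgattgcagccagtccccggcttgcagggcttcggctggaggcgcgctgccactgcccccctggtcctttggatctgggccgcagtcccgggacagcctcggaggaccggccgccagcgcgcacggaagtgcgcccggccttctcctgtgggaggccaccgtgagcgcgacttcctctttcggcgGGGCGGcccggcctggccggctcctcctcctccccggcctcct
Of the 11 called genes 7 had a promoter in the table, these 4 and Itgam, Itgb5 and Itgb7. GGGCGG was in 6 of the 7, at 2 overlapping places in Cdh6 and 3 places in Itgb5, and 35.7% of 32851 such promoters hold it. ACAANG was in 2 of the 7, Cdh6 and Itgb7, and 41.2% of all hold it. CACCTG, the E-box bound by SNAI and ZEB repressors of cadherin genes, was in 1 of the 7, Itgb5, and 20.2% of all hold it. Ctnnd2 and Itgav held 28 and 24 CG pairs, above the upper quartile of all promoters, 20, while Itga4 held 10 and Cdh6 held 8, near the median of 7. Such matches describe the letters in these windows only.

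Among the type I cadherins, the classical family that joins like cells, Cdh2 fell late in the nerve. Cdh2 is N-cadherin, which mediates contacts of crest cells, precursor glia and axons. Its index was 973, 1239 and 605 at E9.5, 1068, 1262 and 1522 at E12, and 1050, 1442 and 1349 at E14. It was 730, 472, 1173 and 804 at E16, 748, 563 and 408 at E18, and 265, 138 and 453 at P0. All P0 arrays lay below every array of E9.5, E12, E14 and E16, and they overlapped with E18. At P0 against E12 Cdh2 averaged 285 ± 159 and 1284 ± 227 (SD, n = 3 each), a 4.99-fold fall (log2 change -2.32, SE 0.39, adjusted p = 0.000655). Within lots 1 and 4 the log2 differences were -2.01 and -1.75. No interval between neighbouring stages was called for Cdh2. At P0 against E9.5 it fell 3.54-fold (log2 change -1.82, adjusted p = 0.0022), but with the GAPDH 3'/5' signal as a covariate the log2 change was -0.84 (adjusted p = 0.318), and that signal did not overlap between these stages. Nor did the signal overlap between P0 and E12, where the call of Cdh2 held under every alternative tried (log2 change -2.73 to -1.78).

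Cdh3, P-cadherin, is best known from epithelia and their derivatives. On probe set 100409_at it read 588, 498 and 540 at E9.5, 647, 624 and 621 at E12, 684, 737 and 572 at E14, 576, 739, 648 and 703 at E16, 667, 644 and 669 at E18, and 820, 939 and 653 at P0. Every P0 array was above every E9.5 array, with a 1.47-fold rise (log2 change 0.56, SE 0.15, adjusted p = 0.01). On probe set 162097_r_at it read 174, 139 and 143 at E9.5, 102, 120 and 140 at E12, 197, 228 and 141 at E14, 243, 258, 230 and 190 at E16, 236, 174 and 213 at E18, and 335, 230 and 170 at P0. The suffix of 162097_r_at marks probes chosen with relaxed rules. That probe set was called at P0 against E12, at 1.97-fold (log2 change 0.98, SE 0.23, adjusted p = 0.00864), where 100409_at was not, although both changes were upward. With the GAPDH covariate the first call had an adjusted p of 0.365 and the second of 0.0865. The first also lost its call without P0 replicate 3 (0.0584), and the second without E16 replicates 1 and 2 and P0 replicate 1 (0.0532). Cdh1, E-cadherin of epithelia, had stage means between 275 and 323 and was not called, and neither were Cdh4, R-cadherin, on 2 tested probe sets, nor Cdh15, M-cadherin of muscle.

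Of the type II cadherins, which differ from type I in the pocket that exchanges strands, Cdh6 changed. Cdh6, K-cadherin, is known from neural crest and early glia. Its index was 123, 313 and 269 at E9.5, 495, 557 and 884 at E12, and 202, 377 and 259 at E14. It was 123, 81.2, 188 and 246 at E16, 135, 111 and 78.2 at E18, and 92.5, 74.3 and 187 at P0. The 3 E12 arrays were above all other arrays of the series. At E12 against E9.5 Cdh6 averaged 645 ± 209 and 235 ± 99.6 (SD, n = 3 each), a 2.86-fold rise (log2 change 1.52, SE 0.44, adjusted p = 0.0306). This call was lost without E9.5 replicate 1 (adjusted p = 0.162), without E12 replicate 2 (0.0636) or 4 (0.118) and with no filter on dim probe sets (0.0602). With the GAPDH covariate the log2 change was 2.31 (adjusted p = 2.24e-05). At P0 against E12 it fell 5.75-fold, with 118 ± 60.3 and 645 ± 209 (log2 change -2.52, SE 0.44, adjusted p = 0.000929), and by -1.55 on the log2 scale with that covariate (adjusted p = 0.00219). Within lots 1 and 4 the log2 differences were -2.42 and -2.24.

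Cdh11, another type II cadherin of mesenchyme and crest, was above the floor on 1 of 19 arrays and had a highest index of 96.9, so no course can be given for it. Cdh9 was above the floor on 1 array too. Cdh8, of neurons, had a median index of 670 and was not called in any comparison. Cdh10 was not called either.

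Cdh5, VE-cadherin of endothelium, differed by lot within the nerve stages. It read 9.68, 18.3 and 29.3 at E9.5, 234, 154 and 32.2 at E12, 106, 95.7 and 11.4 at E14, 162, 300, 14.3 and 17.3 at E16, 187, 169 and 7.31 at E18, and 30.2, 1.72 and 14.5 at P0. From E12 to E18 it was above the floor on 8 of 8 arrays of lots 1 and 2 (95.7 to 300) and on 0 of 5 arrays of lots 3 and 4 (7.31 to 32.2). No stage comparison called it, and the 6-stage F-test gave an adjusted p of 0.359. Over the same 2 sets of arrays Pecam1, another endothelial gene, read 70.1 to 222 in lots 1 and 2 and 64.9 to 93.9 in lots 3 and 4. At E14 Pecam1 was highest in lot 3, at 93.9. Endothelial genes did not all share the order of Cdh5. At E16 Flt1 read 353 and 284 in lot 1 and 612 and 483 in lots 3 and 4. Kdr read 198 and 313 in lot 1 there, and 391 and 324 in lots 3 and 4. The summed index of 12 endothelial markers, Cdh5 included, was 2501 to 3206 in lots 1 and 2 and 2070 to 2664 in lots 3 and 4, and at each of these stages every array of lots 1 and 2 was above those of lots 3 and 4. Without Cdh5 the sums were 2395 to 2906 in lots 1 and 2 and 2058 to 2650 in lots 3 and 4. The order by stage then no longer held at E16, where a lot 1 array was below a lot 3 array. The part of endothelial cells in the Cdh5 values was not tested.

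**Figure D3:**
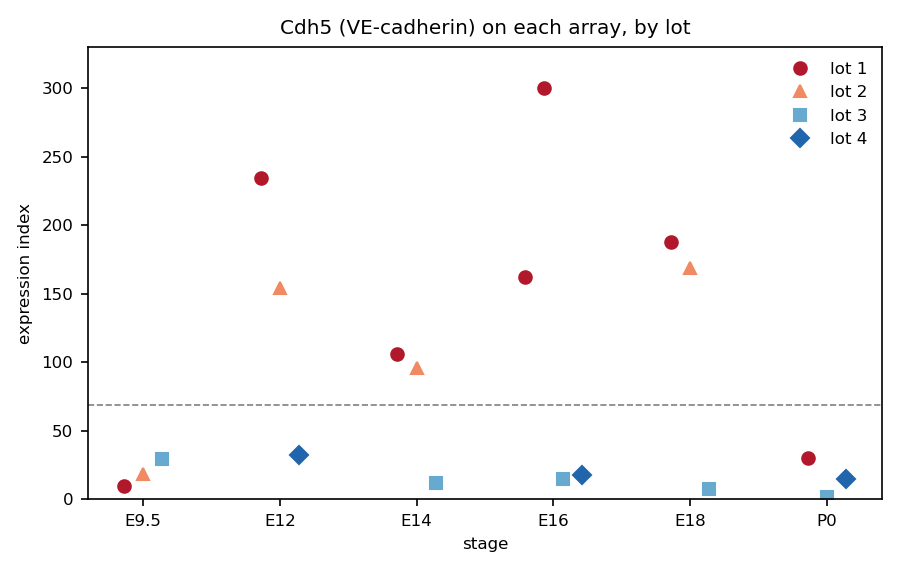
Expression index of Cdh5 (y axis, linear) on each array by stage (x axis), with symbols for the 4 lots and a dashed line at the floor of 68.5. At E12 to E18 the arrays of lots 1 and 2 lie at 95.7 to 300 and those of lots 3 and 4 at 7.31 to 32.2.

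The remaining cadherins were not called. Cdh13, T-cadherin, which lacks the usual tail, ran from 792 to 1566 over all arrays. The protocadherins Pcdh7 and Pcdh12, which belong to the non-clustered group, were not called on their 3 probe sets. Pcdh7 on 102280_at had means of 6.38 at E9.5, 57.4 at E12 and 48.5 at E14, then of 112 at E16, 146 at E18 and 147 at P0, but the arrays within E16, E18 and P0 lay on both sides of the floor (6-stage adjusted p = 0.269).

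Of the catenins, Ctnnd2 had a sharp peak at E14. Ctnnd2 is delta-2 catenin, a relative of p120 catenin that binds the inner part of cadherins and is best known from neurons. Its index was 99.1, 123 and 81.4 at E9.5, 156, 238 and 231 at E12, and 706, 531 and 777 at E14. It was 94.7, 83.3, 95.6 and 64.7 at E16, 49.9, 55.4 and 32.4 at E18, and 47, 29.4 and 35.1 at P0. The E12 arrays were above all E9.5 arrays, the E14 arrays above all others, and every E18 and P0 array was under the floor. At E12 against E9.5 Ctnnd2 averaged 208 ± 45 and 101 ± 20.7 (SD, n = 3 each), 2.05-fold higher (log2 change 1.04, SE 0.20, adjusted p = 0.00159). At E14 against E12 it averaged 671 ± 126 and 208 ± 45, 3.24-fold higher (log2 change 1.70, SE 0.20, adjusted p = 6.64e-05). At E16 against E14 it fell at least 7.82-fold, with 84.6 ± 14.4 (n = 4) and 671 ± 126 (n = 3; log2 change -2.97, SE 0.18, adjusted p = 4.09e-08).

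The Ctnnd2 differences within lots ran the same way, at 2.18 and 1.16 in lots 1 and 2 for E14 against E12 and -2.99 and -3.02 in lots 1 and 3 for E16 against E14. Ctnnd2 was called in these comparisons under every alternative tried. It was measured by a single probe set, 99856_r_at, whose suffix marks probes chosen with relaxed rules. At P0 against E9.5, with all P0 arrays at the floor, its adjusted p was 0.0501.

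The other catenins were not called in any comparison. Ctnnd1, p120 catenin, which keeps cadherins at the surface, ran from 1115 to 1822 over all arrays on 98152_at. Ctnna1, alpha-E catenin, which links cadherins to actin, ran from 666 to 2949 on 93364_at. Ctnna2, the neuronal alpha catenin, and Ctnnal1 complete the tested catenins. By contrast Ctnnb1, beta-catenin, which is outside the rule, fell 2.33-fold at P0 against E12, with means of 2643 and 5713 (log2 change -1.22, SE 0.26, adjusted p = 0.00352).

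**Figure D4:**
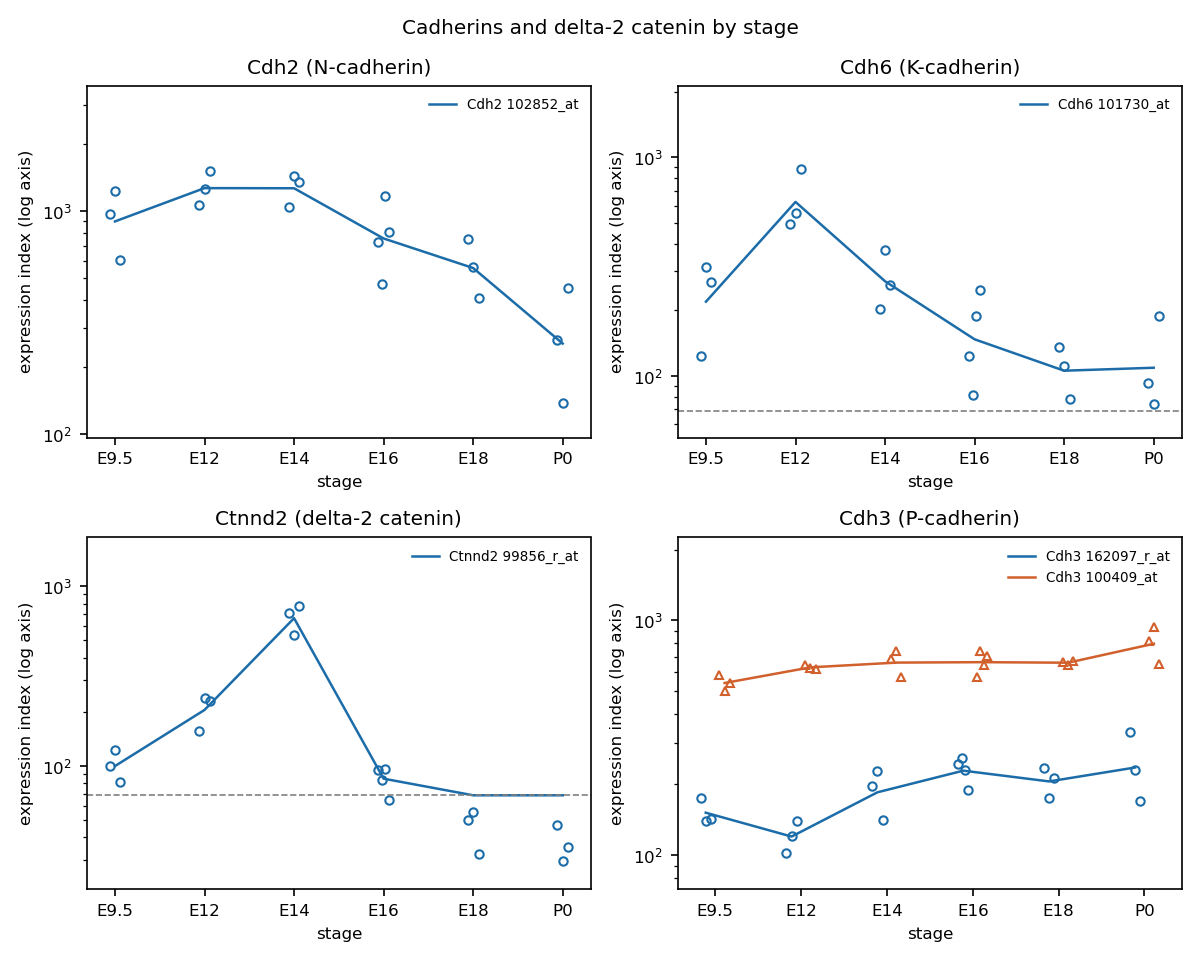
Expression index (y axis, log scale) of Cdh2, Cdh6, Ctnnd2 and 2 probe sets of Cdh3 by stage (x axis), with a symbol per array, a line through the stage means of floored log2 values and a dashed line at the floor of 68.5. Cdh6 peaks at E12 and Ctnnd2 at E14, Cdh2 is lowest at P0, and Cdh3 runs from 102 to 335 on one probe set (162097_r_at) and from 498 to 939 on the other.

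Among the integrins, Itga4 was on in the early nerve and at or near the floor before and after. Itga4 is the alpha-4 subunit, which pairs with beta-1 to bind fibronectin and the cell surface ligand of vascular cells, Vcam1, and is known from migrating crest and from leukocytes. On probe set 95292_at it read 65.1, 97.5 and 58 at E9.5, 582, 578 and 679 at E12, and 230, 215 and 282 at E14. It read 67.3, 45.5, 125 and 70.4 at E16, 49.4, 43.4 and 29.9 at E18, and 14.7, 16.1 and 44.4 at P0. The E12 arrays were above all others, the E14 arrays came next with no overlap, and all E18 and P0 arrays were under the floor.

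On this probe set Itga4 averaged 613 ± 57.3 at E12 and 73.5 ± 21.1 at E9.5 (SD, n = 3 each), at least 7.93-fold higher at E12 (log2 change 2.99, SE 0.21, adjusted p = 4.54e-08). It fell 2.54-fold at E14 against E12, with 242 ± 35.3 and 613 ± 57.3 (log2 change -1.34, SE 0.21, adjusted p = 0.0013). It fell at least 3.00-fold at E16 against E14, with 77.1 ± 33.9 (n = 4) and 242 ± 35.3 (n = 3; log2 change -1.59, SE 0.20, adjusted p = 0.000172). These 3 calls held under every alternative tried. Within lots 1 and 2 the log2 differences at E12 against E9.5 were 3.09 and 2.57.

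A second probe set for Itga4, 102655_at, read 24.7, 46.9 and 33.2 at E9.5, 219, 187 and 354 at E12, and 160, 163 and 207 at E14. It read 74.3, 49.9, 112 and 110 at E16, 54.5, 53.9 and 33 at E18, and 26.3, 4.75 and 34.6 at P0. Its means were also highest at E12 and next at E14, and it was at least 3.56-fold higher at E12 than at E9.5 (log2 change 1.83, SE 0.22, adjusted p = 2.38e-05). At E16 against E14 it fell at least 1.97-fold (adjusted p = 0.0168), a call lost without E14 replicate 3 (0.112), E16 replicate 1 (0.0581) or E16 replicate 2 (0.059), without E16 replicates 1 and 2 and P0 replicate 1 (0.188) and with floors at the 10th (0.0929) and 40th (0.25) percentiles. A further one, 102656_at, was above the floor on 1 array, with a highest index of 75.7.

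Leukocyte markers were also higher at E12, where 5 of 13 tested rose and 0 fell against E9.5 (9.7% and 4.41% of all probe sets). Their summed index over 15 genes was 3329 to 5797 at E12, 2206 to 2707 at E9.5 and 2355 to 2624 at P0. Ctss, a lysosomal protease of macrophages, read 1719, 850 and 222 on E12 replicates 1, 2 and 4. Erythroid markers had 3 of 9 tested higher and 0 lower in that comparison, with sums of 3507 to 10760 at E12 and 2361 to 2579 at E9.5, and mural markers 1 of 8 higher and 0 lower, with sums of 3189 to 4202 at E12 and 1568 to 1840 at E9.5. The part of these cells in the Itga4 values was not tested.

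Itgav went up at nerve entry and stayed up. Itgav is the alpha-v subunit, which pairs with several beta subunits to bind the RGD sequence of vitronectin, fibronectin and tenascin. On probe set 104386_f_at it read 575, 674 and 461 at E9.5, 2943, 3301 and 3374 at E12, and 4251, 4969 and 4035 at E14. It read 4089, 4428, 5502 and 3723 at E16, 4174, 4291 and 3727 at E18, and 2255, 3360 and 3165 at P0. All 16 nerve arrays were above all 3 crest arrays.

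At E12 against E9.5 this probe set averaged 3206 ± 231 and 570 ± 107 (SD, n = 3 each), 5.68-fold higher (log2 change 2.51, SE 0.19, adjusted p = 8.82e-08), and 2.36 and 2.29 within lots 1 and 2. At P0 against E9.5 it was 5.12-fold higher (log2 change 2.36, SE 0.19, adjusted p = 9.09e-08). Over the 5 nerve stages the F-test gave an adjusted p of 0.0625, so no change within the nerve was called. Probe set 104385_i_at read 367, 582 and 289 at E9.5, 1666, 1867 and 2129 at E12, 2250, 2192 and 2678 at E14, 1949, 1329, 2959 and 1986 at E16, 2150, 2330 and 2845 at E18, and 997, 989 and 2196 at P0. It rose 4.75-fold at E12 against E9.5 (log2 change 2.25, SE 0.32, adjusted p = 0.000124). At P0 against E9.5 it was 3.27-fold higher (log2 change 1.71, adjusted p = 7e-04), and the log2 change was 2.72 with the GAPDH covariate. A further probe set, 98366_at, was above the floor on 1 array. The rise thus rests on 104385_i_at and on 104386_f_at, whose f suffix marks probes shared by a sequence family. Fibroblast markers, whose genes Col3a1 and Postn rose 21.7-fold and 18.0-fold, had 5 of 12 tested higher and 0 lower at E12 against E9.5. Of all probe sets 9.7% were higher and 4.41% lower there. The part of fibroblasts in the Itgav values was not tested.

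Of the beta subunits that pair with alpha-v, Itgb5 was called on 1 of 2 probe sets. Itgb5 makes the vitronectin receptor alpha-v beta-5. On 100601_at it read 186, 134 and 156 at E9.5, 271, 316 and 316 at E12, 279, 289 and 174 at E14, 172, 180, 186 and 266 at E16, 179, 176 and 238 at E18, and 170, 169 and 252 at P0. It was 1.91-fold higher at E12 than at E9.5, with no overlap (log2 change 0.94, SE 0.23, adjusted p = 0.0108), and the call was lost without E9.5 replicate 2 (0.059). On 162218_f_at it read 673, 683 and 629 at E9.5 and 648, 614 and 564 at E12, a log2 change of -0.12 that was not called. Over all arrays 162218_f_at, whose suffix marks probes shared by a sequence family, ran from 554 to 757. The 2 probe sets thus disagree on Itgb5. Itgb3, which makes the receptor alpha-v beta-3, was at or below the floor on all arrays, with a highest index of 54.3.

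Itga7 rose within the nerve and was highest at P0. Itga7 is the alpha-7 subunit, a laminin receptor of muscle and of Schwann cells. On probe set 161497_f_at it read 86, 82.4 and 71.8 at E9.5, 82.6, 88.4 and 81.8 at E12, and 197, 252 and 240 at E14. It read 353, 340, 338 and 855 at E16, 558, 467 and 615 at E18, and 460, 879 and 820 at P0. Arrays of E9.5 and E12 overlapped, and each later array was above both. At P0 against E12 it averaged 720 ± 227 and 84.2 ± 3.6 (SD, n = 3 each), 8.22-fold higher (log2 change 3.04, SE 0.30, adjusted p = 3.3e-06), with 2.48 and 3.33 within lots 1 and 4.

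At E14 against E12 this probe set rose 2.71-fold (log2 change 1.44, adjusted p = 0.0156). That call was lost without E12 replicate 1 (0.0596) or 2 (0.0586), without E14 replicate 2 (0.078) or 3 (0.0673) and with the floor at the 40th percentile (0.245). Probe set 93061_at read 314, 197 and 328 at E9.5, 346, 409 and 317 at E12, 375, 601 and 333 at E14, 465, 479, 387 and 669 at E16, 458, 567 and 457 at E18, and 721, 750 and 691 at P0. It rose too, 2.02-fold at P0 against E12 (log2 change 1.02, SE 0.24, adjusted p = 0.0083) and 2.64-fold at P0 against E9.5 (log2 change 1.40, SE 0.24, adjusted p = 0.000367). Both probe sets rose, and 161497_f_at, whose suffix marks probes shared by a sequence family, changed more. Over the 5 nerve stages the F-test called 161497_f_at (adjusted p = 1.26e-05) and did not call 93061_at (adjusted p = 0.0622). A further probe set, 160086_at, ran from 41.2 to 107 and was not called. Markers of skeletal muscle, where Itga7 is also used, had 0 of 11 tested genes called in either direction at P0 against E12. Of all probe sets 4.53% were higher and 11.8% lower there. The summed index of the muscle markers was 2933 to 4392 at P0 and 3527 to 4691 at E12. Of the fibroblast markers 3 of 12 rose and 0 fell at P0 against E12. The part of muscle cells or fibroblasts in the Itga7 values was not tested.

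**Figure D5:**
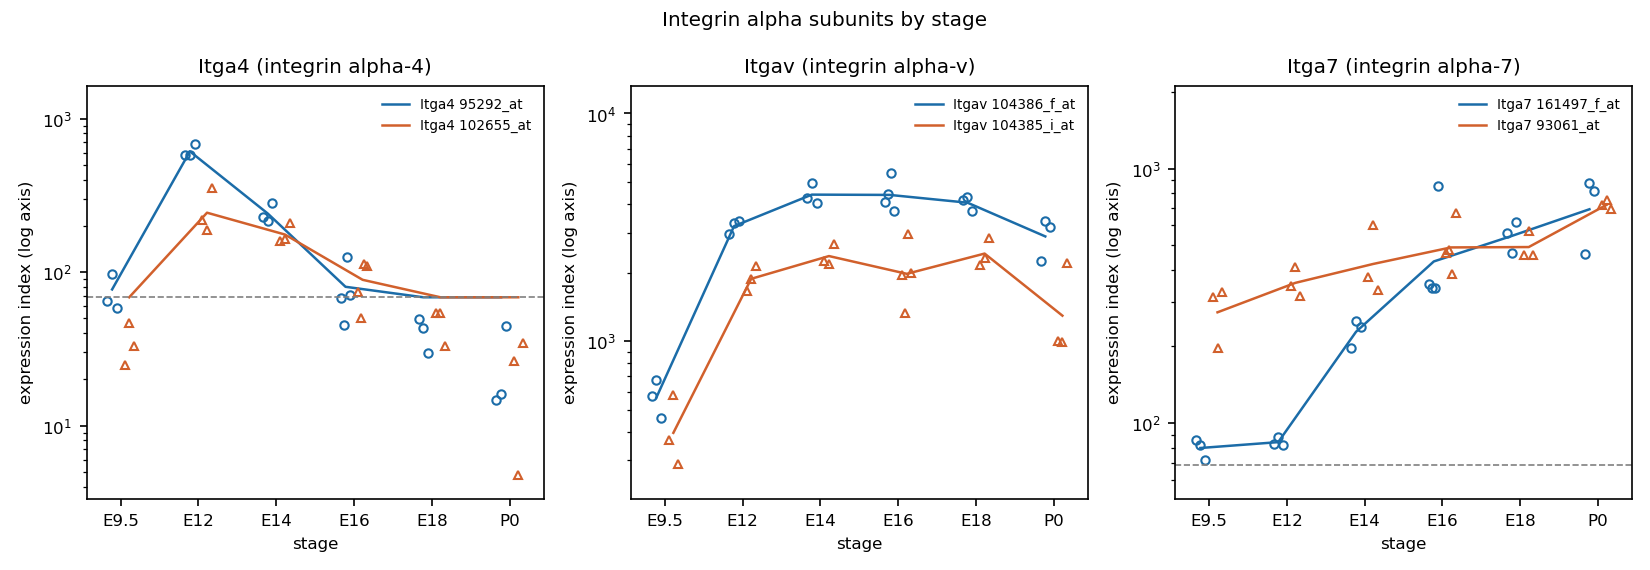
Expression index (y axis, log scale) of 2 probe sets each of Itga4, Itgav and Itga7 by stage (x axis), with a symbol per array, lines through the stage means of floored log2 values and a dashed line at the floor of 68.5. Itga4 peaks at E12, Itgav is higher on all nerve arrays than at E9.5, and Itga7 is highest at P0.

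The other integrin alpha subunits were not called. Itga3, a further laminin receptor, ran from 49 to 181 over its 2 probe sets. Itga5, the classical fibronectin receptor subunit, ran from 53 to 152. Itga2, a collagen receptor subunit, ran from 48.8 to 155. Itga8 was near the floor on 100313_at and between 545 and 1393 on 100314_f_at. Itgb1bp1, which binds the tail of beta-1, was not called on its 2 tested probe sets.

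Of the leukocyte integrins, which blood cells use to leave vessels, 3 probe sets were called. Itgam, of the complement receptor of macrophages, read 300, 302 and 250 at E9.5, 164, 188 and 191 at E12, 231, 217 and 263 at E14, 235, 254, 283 and 192 at E16, 370, 271 and 224 at E18, and 251, 250 and 212 at P0. It was 1.57-fold lower at E12 than at E9.5, with no overlap (log2 change -0.65, SE 0.18, adjusted p = 0.0247). Leukocyte markers went the other way in this comparison, with 5 of 13 tested higher and 0 lower (9.7% and 4.41% of all probe sets). The Itgam call was lost with the lot block (0.0606), with the replicate block (0.0627), and without E9.5 replicate 1 (0.0825) or 2 (0.0895) or E12 replicate 1 (0.107) or 2 (0.0564).

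Itgb2, the beta subunit shared by leukocyte integrins, read 91.7, 111 and 79.5 at E9.5, 138, 125 and 101 at E12, 95.2, 146 and 106 at E14, 92.7, 112, 142 and 112 at E16, 104, 119 and 109 at E18, and 148, 208 and 175 at P0. The P0 arrays were above all other arrays of the series. It was 1.88-fold higher at P0 than at E9.5 (log2 change 0.91, SE 0.20, adjusted p = 0.00256). The summed index of 15 leukocyte markers was 2355 to 2624 at P0 and 2206 to 2707 at E9.5. The part of leukocytes in the values of Itgam and Itgb2 was not tested. Itgb7, of lymphocytes, read 357, 322 and 316 at E9.5, 294, 290 and 300 at E12, 323, 367 and 314 at E14, 336, 349, 375 and 341 at E16, 360, 405 and 317 at E18, and 380, 396 and 363 at P0 on 100906_at. Its rise at P0 against E12 was 1.29-fold (log2 change 0.36, SE 0.12, adjusted p = 0.0491), and 10 of 15 alternatives lost it (adjusted p up to 0.139). Itgal, Itgax, Itgae and Itgb2l were not called.

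The partners of these molecules outside the rule were read from lists. Of all probe sets 9.7% were higher and 4.41% lower at E12 against E9.5, and 4.53% higher and 11.8% lower at P0 against E12. Whether the list counts differ from these shares was not tested. No value with the GAPDH covariate is given for the list genes, and the GAPDH ratio did not overlap between P0 and E12. Of 13 tested adherens junction partners 3 rose and 0 fell at E12 against E9.5, led by Lima1, an actin-binding protein of junctions (4.20-fold, SE 0.41), and Iqgap1, a scaffold (3.00-fold, SE 0.30). At P0 against E12, 0 rose and 4 fell, among them Lima1 (5.31-fold), Nectin3, an adhesion protein of junctions (2.43-fold), and Ctnnb1, while the list's median log2 change was -0.49, against -0.02 over all probe sets. Of 18 focal adhesion proteins 2 rose at E12 against E9.5, namely Fyn, a kinase (2.92-fold), and Actn4, an actinin (2.07-fold). At P0 against E12, 0 of them rose and 3 fell. Actn1, another actinin, had means of 517 at P0, with 1 array at the floor, and 2154 at E12 (log2 change -3.43, SE 0.87), and Actn4 was 2.35-fold lower.

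Of 15 ligands of non-laminin integrins 5 rose and 0 fell at E12 against E9.5, and 5 rose and 1 fell at P0 against E12. The one that fell was Fn1, fibronectin, at 6.22-fold, with means of 508 at P0 and 2983 at E12 (log2 change -2.64, SE 0.43, adjusted p = 0.000442). Tnc, tenascin C, rose at least 4.35-fold at E12 against E9.5 (SE 0.32) and 5.00-fold at P0 against E12 (SE 0.32). Of the laminin-binding subunits left out by the rule, Itgb1 rose 1.58-fold and Itga6 2.91-fold at E12 against E9.5, and Itgb4 rose at least 10.3-fold at P0 against E12. Of 11 regulators of epithelial to mesenchymal transition 1 rose and 1 fell at E12 against E9.5, namely Zeb1 (2.53-fold) and Twist1 (at least 2.20-fold). At P0 against E12, 0 of these 11 rose and 3 fell, with a median log2 change of -0.28, against -0.02 over all probe sets. Of all probe sets 9.7% rose and 4.41% fell at E12 against E9.5, and 4.53% rose and 11.8% fell at P0 against E12.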

How the data were processed

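The labels describe arrays of sorted cells whose target was amplified by 2 rounds of in vitro transcription. The deposited values are intensity on a linear scale, made by the authors with dChip: arrays were normalized to each other by a smoothing spline, probe sensitivities came from 18 arrays, and a model-based index was computed per probe set, per the labels' protocols. No source used here gives the version of dChip. All 19 value columns matched a sample, and 0 were left unused. Probe sets were named through the platform annotation, and the gene identifiers of 59 of 59 members were found in the reference gene table.

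Values under the 25th percentile were set to that floor, log2 was taken, and the 66 control probe sets were dropped, as was any probe set without 3 arrays above the floor. The 19 arrays were fitted together by stage in limma 3.58.1 under R 4.3.3 (lmFit, then eBayes), which left 13 residual degrees of freedom. P-values were 2-sided and adjusted by Benjamini-Hochberg over all probe sets tested. A fold against a stage with arrays at the floor is written "at least". SE is that of a log2 change as fitted, also beside a fold. The number of arrays, 3 or 4 per stage, limits the precision. Separate animals or litters are not named in the labels, so a p-value reflects only how far these samples vary, which may be technical. The model was tested on simulated data with normal spread, no floor and no lots. Changes were added there only to probe sets with means well above the floor. The simulation thus does not cover stages that lie at the floor.

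The members and lists were chosen with earlier results of these data known. Every member probe set called in a stage comparison or in the 6-stage F-test is given in every sample, with Itgb5 also on the probe set that went the other way. Cdh5 and Pcdh7 were added after their values were seen, as were some list genes named for their role. Alternatives were other floors, no filter, quantile normalization, array weights, the GAPDH ratio as a covariate, lot and replicate blocks, and leaving out arrays.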

Additional observations from a re-analysis of the deposited data

Results flagged for a closer look

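At E16, the stage with 4 arrays, 2 member probe sets had an array far from the other 3 on floored log2 values, by Dixon's ratio of gap to range (0.955 for Itga4 and 0.954 for Itga7). On the index without the floor the ratio was 0.687 for Itga4, which would not be flagged, and 0.972 for Itga7. Itga4 (95292_at) read 125 on replicate 3, against 67.3, 45.5 and 70.4 on replicates 1, 2 and 4, of which 2 were at the floor. Itga7 (161497_f_at) read 855 on replicate 4, against 353, 340 and 338 on replicates 1, 2 and 3. Chance flags about 1 in 20 such groups, and 15 probe sets were examined. Without E16 replicate 3 the fall of Itga4 at E16 against E14 stayed called (limma, log2 change -1.80, adjusted p = 3.4e-06), and Itga7 had no call between E16 and its neighbouring stages.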

How the results depend on the processing

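Of 30 calls of a member in a stage comparison, 21 held under every alternative tried, 9 were lost under at least 1 and 0 reversed. Array weights raised the number of member probe sets called to 6 at E14 against E12 (12.5%, against 11.3% of all), 5 at E16 against E14 (10.4%, against 8.76%), 2 at E18 against E16 (4.17%, against 11.1%), 3 at P0 against E18 (6.25%, against 8.31%), 11 at P0 against E9.5 (22.9%, against 33.3%), 22 in the 6-stage F-test (45.8%, against 62%) and 18 in the 5-stage one (37.5%, against 50.9%). With the floor at the 10th percentile 11 members were called at P0 against E9.5 (18.6%, against 26.5%). Leaving out 1 array at a time gave 6 to 8 members at E12 against E9.5, 2 to 3 at E14 against E12, 2 to 3 at E16 against E14, 0 to 0 at E18 against E16, 0 to 2 at P0 against E18, 8 to 13 at P0 against E12, 7 to 12 at P0 against E9.5, 9 to 13 over 6 stages and 6 to 9 over the nerve stages. The counts of 12 at P0 against E9.5 and 2 at P0 against E18 came without P0 replicate 4. Shares of all probe sets are not given for these refits, so the ranges cannot be read as particular to the members. Folds of Itga4 and Ctnnd2 depend on the floor, since it sets their low stages: at P0 against E12 the log2 change of Itga4 (95292_at) was -4.27 with the floor at the 10th and -2.24 at the 40th percentile. The cause of the other differences was not tested. Arrays with the same replicate number did not deviate together (mean r 0.022 over 38 pairs, lowest -0.38, highest 0.71, across probe sets), and 6 of 19 arrays were closest to one of their own number. The replicate block ended the calls of Itgam at E12 against E9.5 and of Itgb7 at P0 against E12 and no other call of a member. Depth has no counterpart here, and signal near the floor limits Cdh5, Cdh9, Cdh11, Itgb3 and the late stages of Itga4 and Ctnnd2.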

Other observations

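The clustered protocadherins, adhesion proteins of neurons whose genes share exons, are represented by 8 probe sets that carry 9 or 14 protocadherin alpha symbols each and so were no members. On 101650_at, with 14 symbols, the index was 50.4 to 62.3 on the 3 E14 arrays and 40.2 to 70.7 on the 6 arrays of E9.5 and E12. It read 514, 362, 162 and 177 at E16, 186, 172 and 179 at E18, and 506, 73.6 and 130 at P0. At E16 against E14 it averaged 304 ± 167 (SD, n = 4) and 58.2 ± 6.80 (n = 3), a log2 change of 1.98 (limma, adjusted p = 0.0426). All 10 arrays from E16 to P0 were above all 9 earlier ones. The call was lost on leaving out a single E14 array, or E16 replicate 1 or 2 (adjusted p 0.123 to 0.159), with the floor at the 40th percentile (0.293), under quantile normalization (0.0564) and with no filter (0.104), and it was held without both E16 replicates 1 and 2 and P0 replicate 1 (log2 change 1.31, adjusted p = 0.00155). These alternatives were chosen after seeing the data. The other 7 probe sets were not called in any stage comparison. Like 101650_at, 101770_i_at, 101771_r_at and 97756_s_at were highest on E16 replicates 1 and 2 and P0 replicate 1. On these arrays the GAPDH ratio was 5.80, 9.12 and 7.69, and on P0 replicate 3 it was 6.80. The probe sets 101769_at, 101772_r_at, 101773_r_at and 160610_at did not share this order. The cause of these high values was not tested.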
